A study of Homo sapiens with 18 samples.

Results

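The wild-type line of this ChIP-seq series was examined for the places where V5-tagged EHMT1 and dimethylated lysine 9 of histone H3 (H3K9me2) were called together and apart. All 652 peaks of the V5 list and all 784 peaks of the H3K9me2 list of that line were used, which is 1436 of the 22458 peaks in the 9 lists of the series. A V5 peak and an H3K9me2 peak were counted as shared when they overlapped by at least 1 bp, and overlapping peaks were merged into 881 places. Of these, 535 held the enzyme and the mark, 103 held the enzyme only and 243 held the mark only. These names stand for called peaks. The excess of places with the mark only over those with the enzyme only was smaller with both lists held to their 652 peaks of highest significance, when the counts were 509, 129 and 141.

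The cells were LNCaP, an androgen-responsive line derived from human prostate cancer. Both groups came from a stable line that carried wild-type EHMT1 with a V5 tag on a lentiviral, tetracycline-inducible construct, and both received 0.5 µg/ml doxycycline for 2 days, so that tagged and endogenous EHMT1 were present together. The V5 antibody precipitated the tagged protein and the other antibody precipitated the mark. Parallel lines carried EHMT1 in which arginine stood in place of a lysine (K450R or K451R) or of both lysines (K450RK451R), and endogenous EHMT1 was precipitated from untreated parental cells. The series comprises 18 samples, 2 replicates in each of 9 groups, with 1 deposited peak list per group, and whether a list came from both replicates or from 1 of them is not given in the sources used here. No value below therefore has a replicate error, no test between conditions was possible, and the intervals given cover counting error only.

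EHMT1, also called GLP, pairs with EHMT2 (G9a) and writes mono- and dimethylation on H3K9, and the ankyrin repeats of both enzymes bind the marks that they make. H3K9me2 is linked to silent chromatin and usually forms broad domains, so that a list of narrow peaks holds sharp local maxima and not those domains. Much constitutive heterochromatin lies on satellite repeats around the centromeres, where the reference genome has gaps and where collapsed repeats gather reads from many copies. RE1 is the DNA element bound by REST, a repressor of neuronal genes that works with EHMT enzymes in non-neuronal cells.

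The sequences at the summits give a first view of the 3 kinds of place. They reach 100 bases to either side of the summit, from GRCh37, the assembly behind hg19, and are printed on the plus strand, with the 5-base unit GGAAT of satellite II and III DNA or its reverse complement ATTCC in capitals. For each kind, the windows shown come from the 2 places of highest −log10 q and from 1 further place. The further place was taken from the highest of those over 1 Mb from an assembly gap, and windows in UTRs were left out. At places with enzyme and mark, the window shown is chr9:69711027-69711227, the second by −log10 q. It lay in no annotated gene and held 0 stretches of 51 bases found once in the nuclear genome.
Chromosome 9, enzyme and mark: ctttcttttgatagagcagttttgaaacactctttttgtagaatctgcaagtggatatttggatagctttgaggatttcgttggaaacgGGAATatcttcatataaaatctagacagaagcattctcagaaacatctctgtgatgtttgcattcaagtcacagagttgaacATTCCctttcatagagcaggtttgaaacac

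Among places with the enzyme only, the highest was chr2:133026690-133026890, between annotated genes and 11.2 kb from the nearest start of a coding gene, ANKRD30BL. The next was chr10:38881875-38882075, 13.1 kb from an assembly gap, with 11 copies of the unit. The window from the set over 1 Mb from a gap lay at chr12:41757387-41757587 in intron 3 of PDZRN4, and here the 81 capitals mark bases in stretches of 21 that also occur in the mitochondrial genome. The 3 windows thus differed in these features. The places on chromosomes 2 and 10 had H3K9me2 peaks in all 3 mutant lines, and the PDZRN4 place had none in any line.
Chromosome 2, enzyme only: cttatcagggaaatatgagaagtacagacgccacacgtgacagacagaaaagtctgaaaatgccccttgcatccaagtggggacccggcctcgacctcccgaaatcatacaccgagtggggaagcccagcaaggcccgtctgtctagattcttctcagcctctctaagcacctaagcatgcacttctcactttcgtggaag
Chromosome 10, enzyme only: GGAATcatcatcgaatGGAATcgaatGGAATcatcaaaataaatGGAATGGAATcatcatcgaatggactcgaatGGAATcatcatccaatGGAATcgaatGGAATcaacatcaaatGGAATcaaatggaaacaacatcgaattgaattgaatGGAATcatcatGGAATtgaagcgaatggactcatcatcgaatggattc
PDZRN4 intron, enzyme only: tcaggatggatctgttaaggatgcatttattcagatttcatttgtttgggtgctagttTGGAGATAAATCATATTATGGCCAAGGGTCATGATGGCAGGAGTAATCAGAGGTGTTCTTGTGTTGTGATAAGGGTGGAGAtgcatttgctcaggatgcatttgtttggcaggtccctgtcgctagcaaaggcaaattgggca

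Among places with the mark only, the highest was chrX:61729173-61729373, 47.3 kb from a gap. The window from the set over 1 Mb from a gap, the third of that set by −log10 q, lay at chr17:45213043-45213243 in intron 14 of CDC27, a subunit gene of the anaphase-promoting complex. A place in exon 14 of the same gene ranked above it and is not printed. Neither of these windows held a copy of the satellite unit.
Chromosome X, mark only: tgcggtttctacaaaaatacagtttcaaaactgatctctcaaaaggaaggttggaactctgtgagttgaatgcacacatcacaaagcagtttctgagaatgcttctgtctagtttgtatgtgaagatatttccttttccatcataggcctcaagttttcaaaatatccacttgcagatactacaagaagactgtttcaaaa
CDC27 intron, mark only: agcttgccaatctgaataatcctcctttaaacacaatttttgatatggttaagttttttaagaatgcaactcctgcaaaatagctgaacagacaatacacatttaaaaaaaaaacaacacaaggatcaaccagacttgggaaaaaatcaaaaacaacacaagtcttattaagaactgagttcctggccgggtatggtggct

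Most V5 peaks of the wild-type line lay on an H3K9me2 peak. Of the 652 V5 peaks, 549 overlapped an H3K9me2 peak, a share of 84.2% (95% Wilson interval 81.2 to 86.8). Of the 784 H3K9me2 peaks, 541 overlapped a V5 peak, a share of 69.0% (interval 65.7 to 72.1). For background, 0.0226% of the 2858365 complete 1-kb bins of the nuclear genome held a V5 peak, 0.0272% held an H3K9me2 peak and 0.0190% held both. The overlap rule uses these same peaks, so that the counts describe the lists and were not tested.

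Peaks of high significance were nearly all shared. The q-value of the peak caller is its p-value adjusted over the genome, and −log10 q rises with the strength of a peak. All 217 V5 peaks with −log10 q of 20 or more overlapped an H3K9me2 peak, and 256 of 257 such H3K9me2 peaks overlapped a V5 peak. In the range from 5 to 10 the shares were 68.6% of 156 V5 peaks and 38.3% of 180 H3K9me2 peaks, and below 5 they were 51.6% of 31 and 17.5% of 57. The reads behind the lists were estimated from their genome-wide backgrounds as 8.84 M (mega) for V5 and 17.9 M for H3K9me2. The part of this difference in depth in the places with the mark only was not tested.

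**Figure D1:**
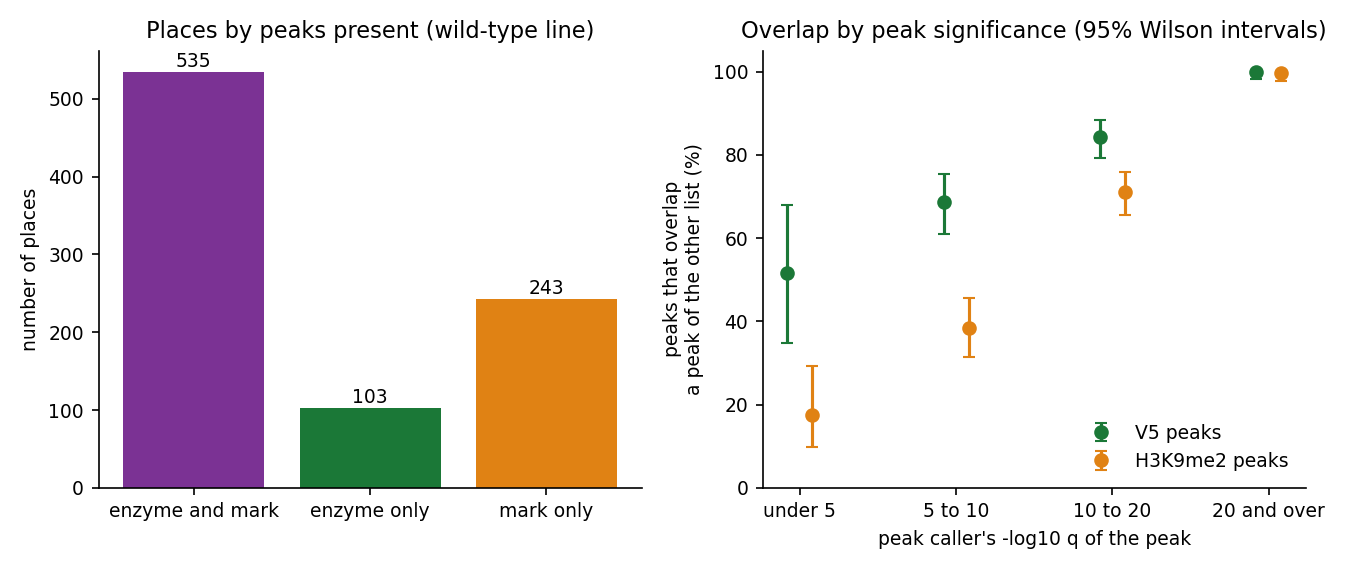
The bars on the left count the 535 places with enzyme and mark, the 103 with the enzyme only and the 243 with the mark only. The points on the right give the share of V5 peaks (green) and H3K9me2 peaks (orange) that overlapped a peak of the other list, by −log10 q of the peak, with 95% Wilson intervals, and both shares rise to nearly all peaks at 20 and over.

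At shared places the V5 and H3K9me2 peaks had nearly the same position and similar folds. An input control is not stated, and 414 of the 535 places had a peak in all 7 other lists. Signal that does not depend on the antibody therefore cannot be told apart here from the enzyme and the mark. Of the 535 places, 518 consisted of 1 peak of each list. Only overlapping peaks that were called in both lists enter these pairs, which limits the distances and fold ratios that can appear. The summits of these pairs were a median of 6 bp apart, 484 of them (93.4%) were within 50 bp, and the largest distance was 498 bp. The median overlap was 140 bp, or 91.6% of the merged place. Fold enrichment, which relates the reads stacked at the summit to the background around it, had a median of 7.71 for the 549 shared V5 peaks (1.97 to 45.2) and 7.70 for the 541 shared H3K9me2 peaks (1.62 to 39.8). Over the 518 pairs, Spearman's rho of the 2 folds was 0.940 and Pearson's r on the log2 scale was 0.955, given as a description with no test. Significance was less alike, since the rho of −log10 q over the same pairs was 0.841, and 90% of the ratios of V5 to H3K9me2 −log10 q lay between 0.438 and 1.44.

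The ratio of V5 fold to H3K9me2 fold had a median of 1.05 over these pairs, and 90% of pairs lay between 0.786 and 1.30. The local backgrounds of the pairs were themselves correlated, with a rho of 0.990. Among the 78 pairs over 1 Mb from an assembly gap the rho of the folds was 0.806, so the likeness was also present, and lower, away from the gaps. No pair had a V5 fold over 2 times the H3K9me2 fold, and 2 pairs had a V5 fold below 0.5 times it. EHMT1 itself held the pair with the lowest ratio, at chr9:140610508-140611008 in intron 2, with a V5 fold of 5.05 and an H3K9me2 fold of 12.7. It was singled out after the values were seen, and 35 of the 151 stretches of 51 bases in its window were unique in the nuclear genome.

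**Figure D2:**
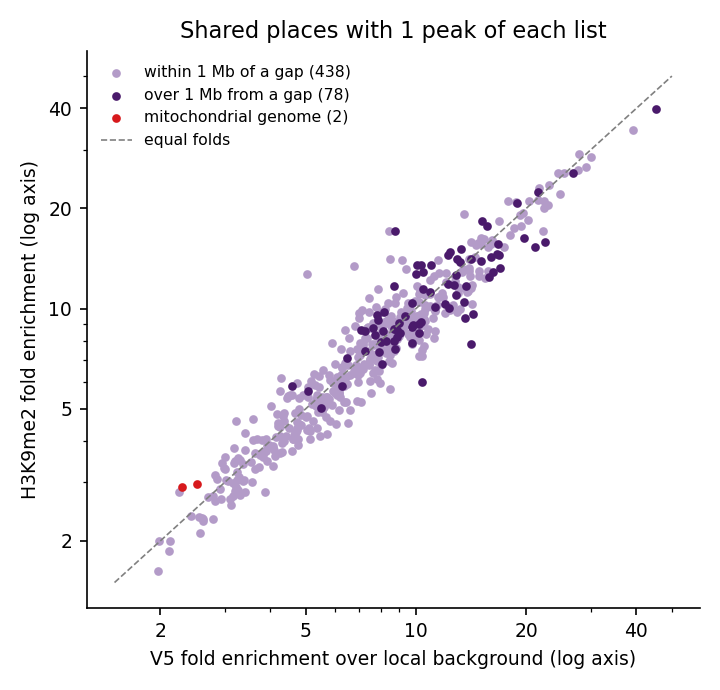
Each point is 1 of the 518 shared places with 1 peak of each list, with V5 fold enrichment on the horizontal axis and H3K9me2 fold enrichment on the vertical axis, both on log axes. The points follow the dashed line of equal folds over the whole range, in the 438 places within 1 Mb of a gap, the 78 further away and the 2 on the mitochondrial genome.

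Peaks without a partner were weaker than shared peaks in significance, and less so in fold. The 103 V5 peaks alone had a median fold of 6.67 (1.91 to 11.7) and a median −log10 q of 8.76, against 16.1 for shared V5 peaks. The 243 H3K9me2 peaks alone had a median fold of 6.15 (1.75 to 11.4) and a median −log10 q of 8.57, against 18.9 for shared H3K9me2 peaks. The pileup, the number of those reads, had a median of 17 for V5 peaks alone and 36 for shared ones, and of 20 and 42 for the mark. V5 peaks alone were also narrower, with a median of 113 bp against 146 bp, and H3K9me2 peaks alone measured 119 bp against 149 bp.

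Places with a single readout often lay close to a peak of the other list. Of the 103 places with the enzyme only, 31 had an H3K9me2 peak within 1 kb and 65 (63.1%) within 10 kb, and the median distance was 3.91 kb. Of the 243 places with the mark only, 51 had a V5 peak within 1 kb and 131 (53.9%) within 10 kb, with a median of 7.86 kb. Clustering was a property of all kinds, since 81.1%, 65.0% and 65.0% of the places with both, enzyme only and mark only lay within 10 kb of another place.

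The 3 kinds of place were distributed unevenly over the genome and gathered around assembly gaps of at least 10 kb, which mark centromeres, telomeres and other unassembled stretches. Within 1 Mb of such a gap lay 450 of 531 nuclear places with enzyme and mark (84.7%, interval 81.4 to 87.6), 71 of 103 with the enzyme only (68.9%, interval 59.5 to 77.1) and 200 of 241 with the mark only (83.0%, interval 77.7 to 87.2), beside 11.04% of all bins. The interval for the enzyme only ended at 77.1 and that for the mark only began at 77.7. Both treat places as independent, although most places lay within 10 kb of another, so a difference between the kinds was not tested. Chromosome Y had the highest density, 3.35 places per Mb, with 44 places of both, 10 of enzyme only and 23 of mark only. Chromosome 10 had the most shared places, 61, and chromosomes 21 and 16 followed Y in density with 0.826 and 0.824 places per Mb.

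**Figure D3:**
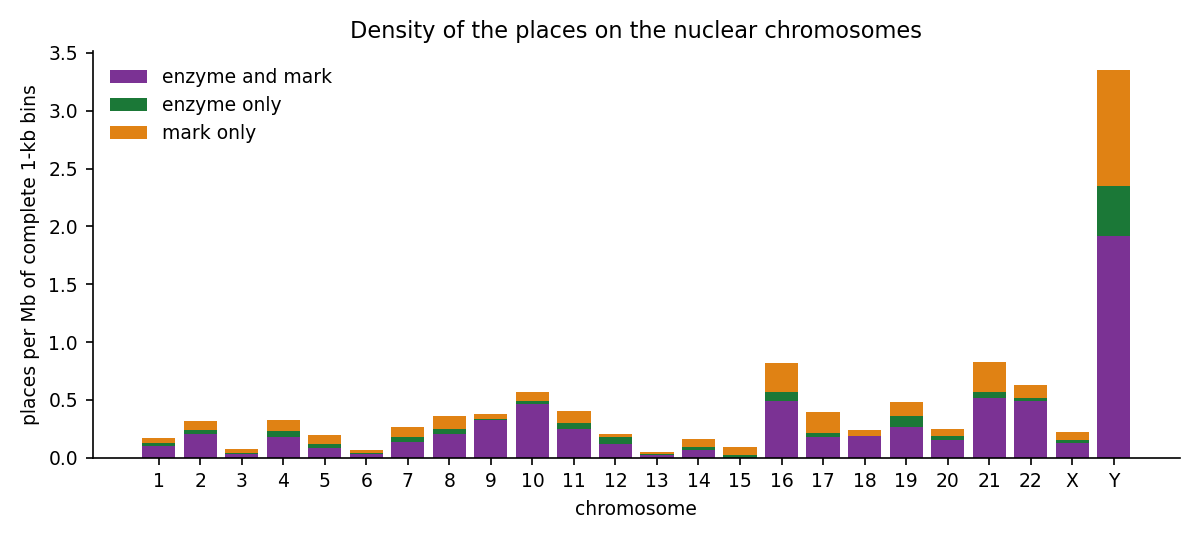
The bars give the places per Mb of complete 1-kb bins on each nuclear chromosome, stacked by kind. Chromosome Y stands highest at 3.35 places per Mb, and chromosome 13 lowest at 0.0523.

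Satellite-type sequence was found in all 3 kinds. At least 4 copies of GGAAT or its reverse complement in the summit window were present at 136 of 529 places with both (25.7%), 25 of 102 with the enzyme only (24.5%) and 55 of 240 with the mark only (22.9%), beside 0.195% of bins, and the 3 intervals overlapped. A period at the monomer length of alpha satellite DNA, the main repeat of centromeres, with at least 70% identity within 1 kb, was present at 10.8%, 5.88% and 7.33% of places, beside 0.0302% of bins. These shares depend on the cut-off, since the chromosome 9 place printed above had 65.3% and was not counted. A place below the cut-off can still hold alpha satellite DNA. The window held no stretch of 51 bases unique in the nuclear genome, the length of a read, at 14.7%, 9.80% and 16.7% of places, beside 2.34% of every 100th bin. How far collapsed or multiply mapped repeats contribute to these peaks was not tested.

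Few places of any kind lay at coding gene starts, though the share with the enzyme only was above that of all bins. The annotated start of a coding gene, taken as the 5′ end of the whole gene and not of each transcript, lay within 1 kb of the summit at 1 of 531 places with both (0.188%), 5 of 103 with the enzyme only (4.85%, interval 2.09 to 10.9) and 3 of 241 with the mark only (1.24%), beside 1.29% of bins. Intergenic summits made up 85.1%, 69.9% and 71.0%, beside 37.7% of bins. The 5 gene lists gave few hits in the gene or within 10 kb. Of 29 genes of H3K9 methylation, EHMT1 alone held a place, with both, and of 13 androgen receptor and luminal prostate genes FOXA1 alone did, with the mark only. None of 20 REST-repressed neuronal genes, 16 E2F genes of replication and the cell cycle and 18 imprinted and germline genes held a place, and of all 20163 coding genes 53, 27 and 65 did.

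Places with the enzyme only included RE1 elements. The blocks CAGCACC and GGACAG set 2 bases apart, on either strand with at most 1 mismatch in all, were present in 6 of 102 windows with the enzyme only (5.88%, interval 2.72 to 12.2), in 0 of 529 with both, which by the Wilson interval allows up to 0.721%, and in 0 of 240 with the mark only, which allows up to 1.58%. All bins gave 0.0593%. None of the 6 had an H3K9me2 peak in any of the 4 lines, and all 6 had a peak in the EHMT1 list of parental cells and in the V5 list of the K450RK451R line. Over all 103 places with the enzyme only, 35 had no H3K9me2 peak in any line. That EHMT1 list had a peak at 80 of the 103 (77.7%), and that V5 list at 86 (83.5%). The matches were 10 to 93 bp from the summit. They are printed on the strand of the match with 7 bases on either side and the 2 blocks in capitals, because no window of the other kinds held them.
NPAS4: tccctttCAGCACCgcGGACAGtagctat
IQSEC3: gccgcgtCAGCACCacGGACAGctcctgg
ZIM2-AS1: acagattCAGCACCacGGACAGcccccaa
MIR7-3HG: tcgtctcCAGAACCctGGACAGctcctcc
Upstream of NKX1-1: acagcgcCAGCACCgcGGACAGcgcgctc
VRK3: atgagttCAGCACCaaGGACAGtgggcag

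NPAS4, an activity-dependent transcription factor of neurons, held the strongest of them, at chr11:66189134-66189354 in intron 1. It had a V5 fold of 10.0 from a pileup of 16 reads, and a V5 peak was called there in all 4 lines. IQSEC3, which encodes a protein of inhibitory synapses, had a V5 fold of 8.75 at chr12:176297-176430 in exon 1, where 8 of 151 stretches of 51 bases were unique. The place in the antisense RNA gene ZIM2-AS1, at chr19:57149498-57149656, had a fold of 8.13, and that in exon 3 of MIR7-3HG, the host gene of a miR-7 copy, had a fold of 6.41 at chr19:4769650-4769831. The remaining folds were 6.25 at chr4:1404375-1404474, 4.202 kb from the start of the homeobox gene NKX1-1, and 4.92 in intron 12 of VRK3 at chr19:50490493-50490752. These V5 peaks rested on 8 to 16 reads at the summit, which puts them among the smaller peaks of the list. CPLX2, which encodes complexin 2 of synaptic vesicle release, also held a place with the enzyme only, at chr5:175223988-175224195 with a fold of 6.08, but without the blocks.

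Nuclear copies of mitochondrial DNA formed another group among the places with the enzyme only. A window was counted when at least 10 of its 181 stretches of 21 bases occurred in the mitochondrial genome, a measure chosen after the values were seen. This held for 13 of 103 places with the enzyme only (12.6%, interval 7.53 to 20.4), 16 of 531 with both (3.01%, interval 1.86 to 4.84) and 0 of 241 with the mark only (up to 1.57%), beside 65 of 2858365 bins (0.00227%). None of the 13 had an H3K9me2 peak in any line. All 13 had a peak in the EHMT1 list, but so did all 16 with both and 80 of all 103 places with the enzyme only. Examples are the mitochondrial pseudogenes MTND1P23, MTND2P28 and MTCO1P12 on chromosome 1, with V5 folds of 3.11, 3.22 and 3.76, and MTND6P4 on chromosome 5, with 6.997. These inserts were not free of the mark, since MTND2P28, MTCO1P12 and MTND6P4 also held places with both. The other members included windows in introns of PDZRN4 and AKAP6, with folds of 11.7 and 8.39. At places with both, the largest such folds were 22.6 for V5 and 15.8 for H3K9me2, at chr13:110076444-110076700.

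On the mitochondrial genome itself there were 4 places with both and 2 with the mark only. V5 folds there were 2.07 to 2.81 and H3K9me2 folds 1.96 to 2.96. Reads from mitochondrial DNA, which carries no nucleosomes, can also align to its nuclear copies, and their part in the group above was not tested.

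**Figure D4:**
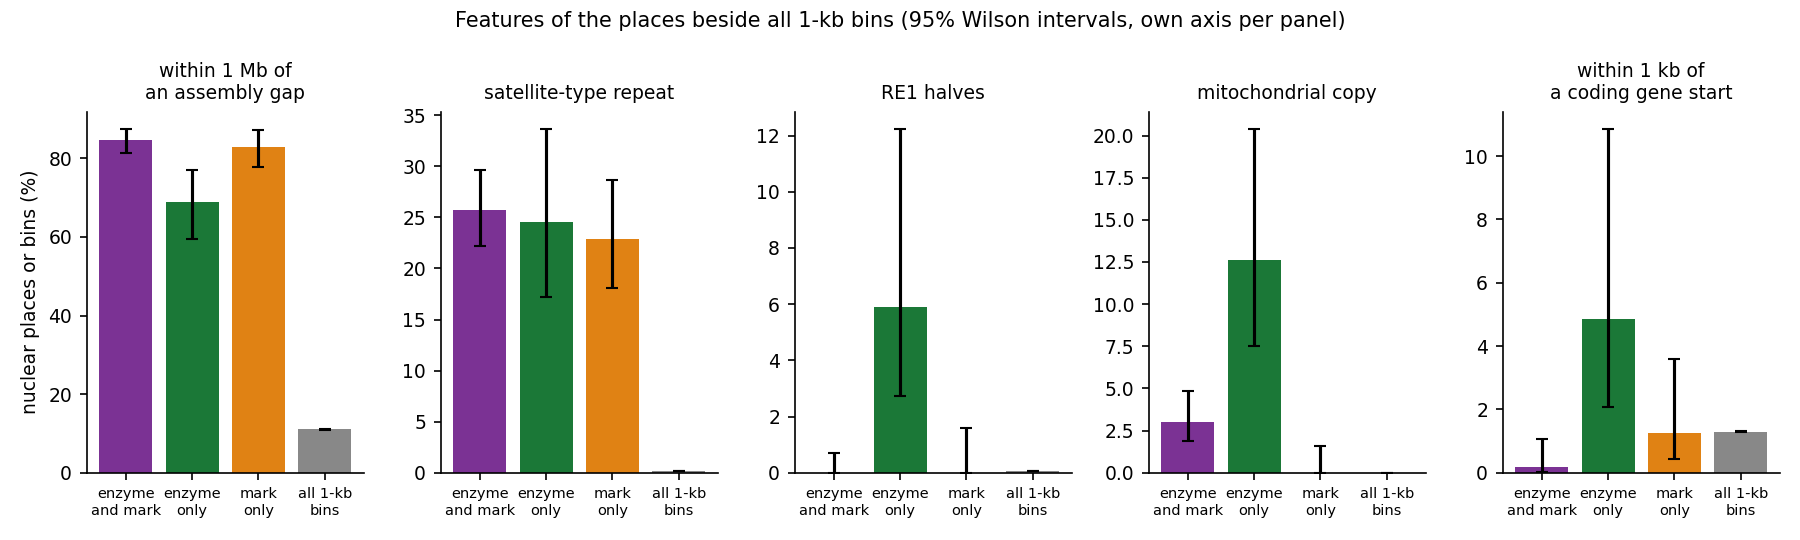
The bars give the share of nuclear places of each kind, and of all 1-kb bins, with a feature, each panel on its own axis and with 95% Wilson intervals. RE1 elements and mitochondrial copies peak at places with the enzyme only (5.88% and 12.6%), windows with at least 4 copies of the satellite unit make up 22.9% to 25.7% of each kind, and coding gene starts are lowest at places with both (0.188%).

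The starts of a few coding genes held places with the enzyme only. EEF1A1, the gene of translation elongation factor 1 alpha, held a V5 peak of 1125 bp at chr6:74229800-74230924 that covered the start of its canonical transcript, with a fold of 7.95 and −log10 q of 14.3. That peak was called in all 4 V5 lists, in none of the H3K9me2 lists and not in the EHMT1 list of parental cells, and it was the only place of the 103 with this pattern. PGK1, the gene of a glycolytic kinase, had a V5 peak with a fold of 5.84 at chrX:77359448-77359603, 0.142 kb upstream of the start of its canonical transcript. It was singled out after the values were seen, and had a peak in the K450RK451R V5 list and in no other list. The promoters of EEF1A1 and PGK1 are widely used in expression vectors, and whether reads from a construct reached these places was not tested. SNX16 and MTRNR2L10 also had starts within 1 kb, with V5 folds of 8.43 and 7.53. The SNX16 place had an H3K9me2 peak in all 3 mutant lines, while the MTRNR2L10 place, which is among the mitochondrial copies, had none in any line.

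Several coding genes held places with the mark only. FOXA1, the pioneer factor of luminal prostate cells, held 2 of them in exon 2, at chr14:38061135-38061341 with an H3K9me2 fold of 5.56 and at chr14:38061696-38061823 with 6.94. Their windows were 71.6% and 65.7% GC, and they rested on pileups of 11 and 14 reads. The former had a peak in 1 other list, V5 of the K450RK451R line, and the latter in none. Single exonic places lay in the mucin genes MUC3A and MUC2, with folds of 7.75 and 5.70, in VPS53, a gene of endosome-to-Golgi transport, with 6.91, and in FUZ, a planar polarity gene, with 5.07. Starts of SPATC1L, USP17L23 and TMCO5A lay within 1 kb of places with folds of 8.38, 6.83 and 5.14. Of the 151 stretches of 51 bases in a window, 49 were unique at the USP17L23 place, 1.002 kb from an assembly gap, and 65 at the MUC2 place. V5 peaks of the K451R and K450RK451R lines were called at the places of MUC3A, MUC2 and SPATC1L, and those of MUC3A and SPATC1L also had a peak in the EHMT1 list. No V5 or EHMT1 peak was called at the USP17L23 place, which had H3K9me2 peaks in the K450R and K451R lines, and the places of VPS53, FUZ and TMCO5A had no peak in any other list.

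CDC27 held places of 2 kinds within the same gene. Exons 7 and 3 carried the enzyme and the mark, with V5 folds of 16.1 and 7.25 and H3K9me2 folds of 14.3 and 8.56. Exons 14 and 11 carried the mark only, with folds of 8.78 and 6.06, as did intron 14, with 8.63. All 3 of these had a peak in the EHMT1 list, and exon 14 and intron 14 also in the V5 list of the K450RK451R line. Besides CDC27, the coding genes with an exon or a start within 1 kb at places with both were PCSK5, a proprotein convertase gene, where an exon overlapped a place with 12 copies of the satellite unit, a V5 fold of 10.0 and an H3K9me2 fold of 12.7, and FAM230A, with folds of 8.21 and 9.97 near its start. The FAM230A window held 0 unique stretches of 51 bases, so that its reads cannot be assigned to this copy, and in the 4 CDC27 exons 44 to 148 of 151 were unique.

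Strong places with both lay near gaps and far from them. The median V5 fold was 7.15 at the 450 places within 1 Mb of a gap and 10.4 at the 81 further away. The highest folds, 45.2 and 39.8, were at a place over 1 Mb from a gap whose window held 9 copies of the satellite unit. At least 4 copies were present at 5 of these 81 places. In intron 16 of the pseudogene ANKRD20A7P, chr9:44070637-44070832 had a V5 fold of 39.3 and an H3K9me2 fold of 34.5. The chromosome 9 place whose window is printed above, chr9:69710894-69711368, had 24.7 and 22.2. At chr1:121484054-121485438, 0.103 kb from a gap, the pileup was 200 reads in both lists, the highest in either, and the folds were 7.99 and 7.47. This highest pileup was the same although the estimated reads differed (8.84 M for V5 and 17.9 M for H3K9me2). Whether the way reads were counted sets an upper limit on the pileup was not tested. The equal pileups are therefore not evidence of equal signal. Among places over 1 Mb from a gap, chr22:18717968-18718249 had folds of 26.9 and 25.6, and chr6:119558522-119558721 in intron 6 of MAN1A1, a mannosidase gene, had 21.5 and 22.4. All 5 of the highest and all 5 of the highest over 1 Mb from a gap had a peak in each of the 7 other lists.

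The lists of the other lines were used to ask whether the 3 kinds recurred. At places with both, 414 of 535 (77.4%) had a peak in all 7 other lists and 0 had none. At places with the enzyme only, 12 of 103 (11.7%) had a peak in all 7 and 5 had none, and at places with the mark only, 26 of 243 (10.7%) had a peak in all 7 and 25 had none. Endogenous EHMT1 in parental cells had a peak at 526 of 535 places with both (98.3%), 80 of 103 with the enzyme only (77.7%, interval 68.7 to 84.6) and 160 of 243 with the mark only (65.8%, interval 59.7 to 71.5). For background, 0.0623% of the bins held a peak of that EHMT1 list. That list held 1748 peaks from an estimated 26.8 M reads, against 8.84 M for the wild-type V5 list. Endogenous EHMT1 was therefore called at most of the places where the mark was called without the tagged protein. The part of depth in this was not tested.

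Many places changed kind when the mutant lines were counted. A peak of the same antibody was called in at least 1 mutant line at 93 of the 103 places with the enzyme only (90.3%). For the mark only this held at 195 of the 243 (80.2%). Among the 103 places with the enzyme only, 68 (66.0%) had an H3K9me2 peak in at least 1 mutant line, and among the 243 with the mark only, 191 (78.6%) had a V5 peak in at least 1 mutant line. The share was largest in the K450RK451R V5 list, which held 14799 peaks from an estimated 22.7 M reads and had a peak at 180 of the 243 (74.1%), beside 0.559% of bins. The K450R V5 list, with 637 peaks from 11.1 M reads, had a peak at 54 of them (22.2%), beside 0.0225% of bins. The K451R V5 list, with 860 peaks from 14.1 M reads, had a peak at 106 of them (43.6%), beside 0.0299% of bins. The H3K9me2 list of the K451R line, with 27.6 M reads, covered 60 of the 103 places with the enzyme only (58.3%), and those of K450R and K450RK451R, with 13.96 M and 8.775 M, covered 44 each (42.7%). Peaks of these 3 H3K9me2 lists were in 0.0432%, 0.0286% and 0.0320% of bins. The mutation and the depth of a list cannot be told apart here.

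**Figure D5:**
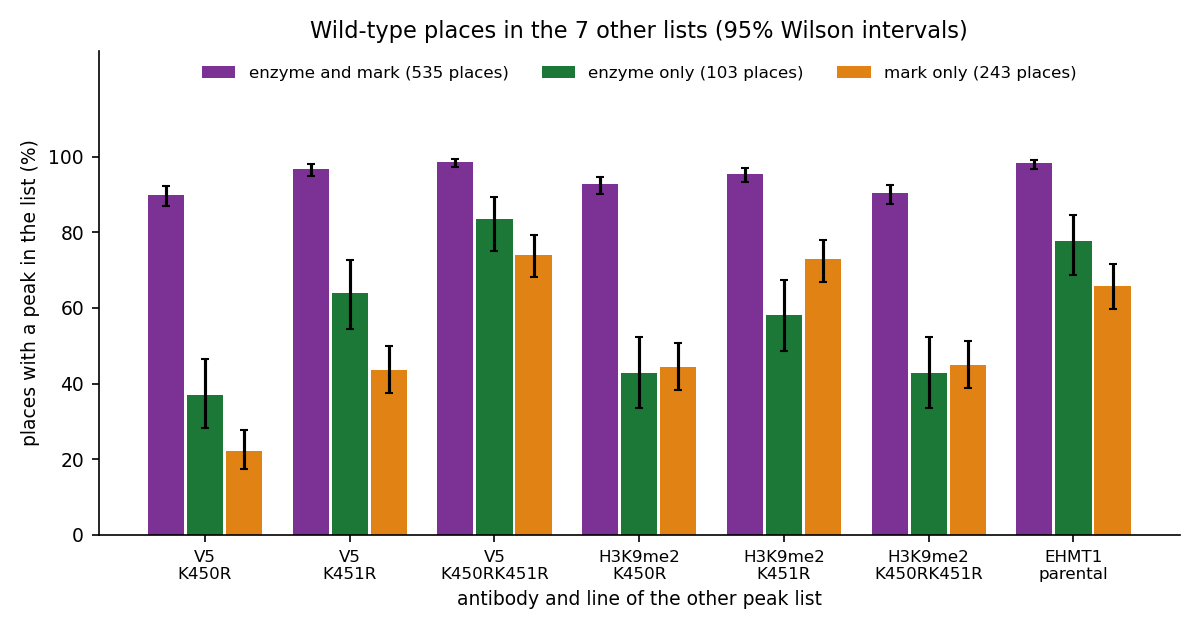
The bars give the share of the 535, 103 and 243 places of each kind with a peak in each of the 7 other lists, with 95% Wilson intervals. Places with both are at 89.9% or more in every list, while the other kinds range from 22.2% to 83.5%.

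Few places kept a single readout through the series. Of those with the enzyme only, 35 had no H3K9me2 peak in any of the 4 lines. This set held all 6 RE1 elements and all 13 mitochondrial copies, 24 of the 35 had a peak in the EHMT1 list, and 16 (45.7%) lay within 1 Mb of a gap. At least 4 copies of the satellite unit were in the windows of 3 of the 35 (8.57%). Of those with the mark only, 37 had no peak in any V5 or EHMT1 list, 25 of them had no peak in any other list at all, and 28 (75.7%) lay within 1 Mb of a gap. At least 4 copies of the unit were in 6 of the 37 (16.2%). Only 1 of the 37, on chromosome Y, had an H3K9me2 peak in all 4 lines. The median folds of these sets were 6.997 for the enzyme and 5.69 for the mark.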

How the data were processed

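The authors mapped single-end 51-nt reads to hg19 and called peaks with MACS2. Per the labels, FastQC 0.11.9, BWA 0.7.9a, SAMtools 1.2 and MACS2 2.1.0 were used. In each deposited list the authors gave per peak a fold enrichment (ratio of pileup to local background), −log10 p, −log10 q, a display score and the offset of the summit. The score was not used. Pileup and Poisson background were solved from the deposited fold and −log10 p, which succeeded for 100% of peaks. The background, 2.7 Gb and a read extension of 100 bp gave the reads behind a list; extension, pseudocount and lack of an input control were inferred from the values. Without replicate values no test was made, and shares have 95% Wilson intervals, which treat neighbouring peaks as independent.

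Genes came from GENCODE version 44 on the same build, with canonical transcripts. Sequence features were read within 100 bp of summits and of the centres of 2858365 bins, and gaps were runs of at least 10 kb of unknown bases. The mitochondrial genome was left out of sequence and annotation counts. The places named were the 5 of highest −log10 q per kind (the lower of the 2 values for shared places) on chromosomes 1 to 22 and X, the 5 highest over 1 Mb from a gap with a unique stretch of 51 bases, coding genes with a start within 1 kb or an exon at a place, and listed genes. Some places and windows chosen by these rules are not reported here. The RE1 and mitochondrial groups, PGK1 and the EHMT1 ratio lie outside that rule. Members, gene lists and searched strings were chosen with earlier results of these data known. Alternatives covered significance, fold, overlap rule, list length, chromosomes, uniqueness and gaps. Python 3.11.15, numpy 2.4.6, scipy 1.17.1, pysam 0.24.0, numba 0.67.0 and matplotlib 3.10.9 were used, and the scripts were tested on simulated data.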

Additional observations from a re-analysis of the deposited data

How the results depend on the processing

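Under the 11 alternatives to the rule of counting, the share of V5 peaks with an H3K9me2 peak ran from 71.9% to 89.0% and the share of H3K9me2 peaks with a V5 peak from 64.8% to 78.4%, and in each the V5 share was the higher. The V5 list was the shorter, with 652 peaks against 784, so this order follows in part from list length. At −log10 q of at least 10 the shares were 87.3% and 72.8%, with 59 places of enzyme only and 149 of mark only. At a fold of at least 5 the V5 share was 80%. With both lists held to 652 peaks the shares were close, at 80.2% (interval 77.0 to 83.1) and 78.4% (interval 75.1 to 81.4), and 141 places held the mark only. With reciprocal overlap of at least 50% they were 77.9% and 64.8%, and with peaks within 1 kb counted they were 89.0% and 75.5%. Over 1 Mb from a gap the V5 share was 71.9%, and 81, 32 and 41 places held both, the enzyme only and the mark only, fewer because most peaks lie near gaps. Chosen after the data were seen, counting a peak of the other antibody in any of the 4 lines gave 94.6% and 93.4%. The stricter significance, equal −log10 p, summit distance, nuclear chromosome and unique sequence settings not given here stayed within the interval of each share and within 1.5 times each count.

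No paired analysis was possible because the deposited lists give no values per replicate, and for the same reason no replicate was left out. The V5 list rests on fewer estimated reads than the H3K9me2 list (8.84 M against 17.9 M), and the part of depth in the counts of places with a single readout was not tested. Narrow peaks do not measure broad H3K9me2 domains, an input control is not stated, and where the summit window holds no unique stretch of 51 bases the copy is unknown.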
